A study of Homo sapiens with 6 samples.

Results

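The MYC, MAX and MXD network is a set of transcription factors that share a basic helix-loop-helix leucine zipper. The 10 genes described here, MYC, MYCN, MYCL, MAX, MXD1, MXD3, MXD4, MXI1, MNT and MLX, were chosen by name, and all 10 were found among the 27968 genes of the deposited tables and entered the test. They were measured by RNA-seq in H23 cells, a human lung adenocarcinoma line, with 3 libraries given a control siRNA and 3 given an siRNA against HOTAIR-N. HOTAIR is a long non-coding RNA, and the sample titles carry HOTAIR-N in the name of the siRNA. Each library came from its own transfection, per the series' design text, and rRNA-depleted total RNA was sequenced from cells taken 48 hours later. P-values thus measure the spread between transfections of a single line. All libraries share 1 cell line, the RNAiMAX reagent and 1 siRNA label per group, so what belongs to HOTAIR-N and what belongs to that siRNA cannot be told apart.

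MAX is the common partner of the network. It pairs with MYC, MYCN or MYCL to activate genes through the E-box, a short DNA element. It also pairs with MXD1, MXD3, MXD4, MXI1 or MNT, which bring the SIN3 and histone deacetylase corepressor to the same element and so oppose MYC. MLX is a MAX-like protein that pairs with MNT and some MXD proteins and, above all, with the glucose-sensing factors MLXIP (MondoA) and MLXIPL (ChREBP). MYC is a major driver of growth in lung cancer.

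The libraries held 32715361 to 36578681 expected counts, which are estimated read counts per gene. The first principal component separated the siRNAs. Control replicate 1 stood apart most within its group, with a chi-square per degree of freedom of 14.97 and 13.61 against the other control libraries, where the remaining replicate pairs gave 2.06 to 7.14. HOTAIR, the targeted gene, counted as a whole gene and not as HOTAIR-N alone, had 169, 148 and 202 counts with control siRNA. With HOTAIR-N siRNA it had 88, 74 and 82. Its log2 fold change was -1.04 (SE 0.14, edgeR quasi-likelihood test, adjusted p = 1.32e-05), and p was 0.1 by an exact permutation of the libraries (two-sided), a floor set by 3 against 3. Of 9 epithelial and lung adenocarcinoma markers, NAPSA and SFTPB stayed under 1 TPM (a level per transcript length, scaled to the library) in every library. The summed level of these markers was 3717 to 4425 TPM with control siRNA and 2924 to 3295 TPM with HOTAIR-N siRNA. KRT18, the only one of them that fell, went from 2592 to 1535 TPM, while CDH1, KRT7 and NKX2-1 rose, at log2 fold changes of 1.07, 1.05 and 1.02. SFTPB was not tested, and the others did not pass. The 4 endothelial markers and the leukocyte genes PTPRC and CD3E were under 1 TPM throughout, whereas the leukocyte markers CD68 (7.13 to 9.32 TPM) and CD14 (1.73 to 2.96 TPM) were above it in every library and did not pass. The 4 fibroblast markers summed to 5.69 to 6.34 TPM and 15.4 to 15.9 TPM in the same order, with DCN and PDGFRA under 1 TPM. The 4 neuroendocrine markers, of which only SYP reached 1 TPM, summed to 4.37 to 4.48 TPM and 15.2 to 16.2 TPM. The part of these markers in the results below was not tested.

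The network genes bind the E-box, and some of their own promoters hold it. Promoters of 300 bases, 250 before and 50 after the gene start, were available for 9 of the 10 genes (RefSeq, GRCh38.p14, a later build than the hg19 of the counts). The canonical E-box CACGTG, which reads the same on both strands, was present in 3 of these 9, against 10.0% of the 11268 promoters of tested genes. The stretches around it are shown for MXD4, MNT and MLX, whose RNA differed between the siRNAs. The call of MLX did not hold in all alternative analyses. MXI1, MXD1, MYCN and MYC differed as well, as did 57.5% of all tested genes. The part of the E-box in these differences was not tested. The E-box is in capitals, each run is 5′ to 3′ along the gene's strand, and all lie before the gene start.
MXD4 (chr4:2262315-2262359, minus strand): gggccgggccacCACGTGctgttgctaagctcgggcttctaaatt
MNT (chr17:2401221-2401280, minus strand): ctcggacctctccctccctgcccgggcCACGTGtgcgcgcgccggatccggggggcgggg
MLX (chr17:42567023-42567082, plus strand): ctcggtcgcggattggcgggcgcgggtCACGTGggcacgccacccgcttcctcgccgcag
The E-box began 238 bases before the gene start in MXD4, 193 in MNT and 50 in MLX. MXI1, MXD1, MXD3, MAX, MYCL and MYCN had no CACGTG in the window. The related element CACGCG, searched on both strands, was found in MXD3 alone among the 9, and in 18.2% of the promoters of tested genes. A match gives the letters in the window only, and no binding was measured.

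With HOTAIR-N siRNA the antagonists of MYC moved in both directions while MAX showed no detectable difference. MXD4, MXI1 and MNT rose and MXD1 fell, and each of these 4 calls held under all 12 alternative analyses. MYC and MYCN rose and MLX fell by small or poorly measured amounts, and these 3 calls did not hold throughout. MAX, MYCL and MXD3 did not pass. In all, 5 of the 10 genes rose and 2 fell (edgeR quasi-likelihood test, adjusted p under 0.05 over all genes). Over all 15072 tested genes 57.5% passed, 28.7% higher and 28.8% lower, so the share of network genes that passed is read against a background in which most genes differed. The groups did not overlap for 6 of the 10 genes, against 62.9% of all tested genes. The median log2 fold change was 0.12 over the 10 genes and 0.01 over all tested genes. In such bulk RNA, fewer cells of a kind and less RNA per cell cannot be told apart. Without control replicate 1 the counts of network genes were the same, 5 higher and 2 lower. Leaving out control replicate 3 or HOTAIR-N siRNA replicate 3 took the number from 7 to 4, 3 higher and 1 lower in each case, and the other single libraries gave 5.

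**Figure D1:**
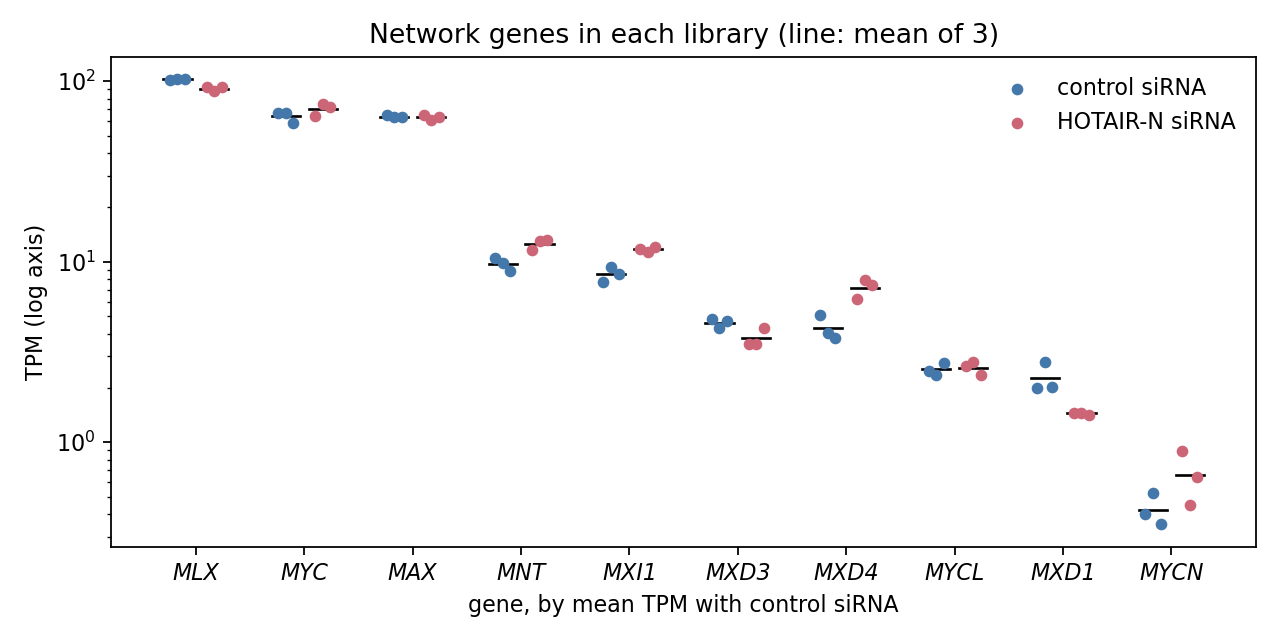
Level of each network gene in TPM (log axis) in the 3 control siRNA libraries (blue) and the 3 HOTAIR-N siRNA libraries (red), with lines at the group means. MLX, MYC and MAX lie above 58 TPM in every library and the other 7 genes below 14 TPM.

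The levels per length put the network genes in 2 tiers, as the plot of TPM by gene shows. With control siRNA MLX had the highest level in TPM, at 102.6 ± 0.79 TPM (SD, n = 3). MYC followed at 63.9 ± 4.45 TPM and MAX at 63.7 ± 0.83 TPM (SD, n = 3 each), and these 2 overlapped. This order rests on the listed transcript lengths. In counts scaled to library size alone (CPM), MYC stood highest, with control means of 144.2 CPM for MYC, 118.0 for MLX and 56.3 for MAX. The antagonists were lower. MNT stood at 9.75 ± 0.81 TPM and MXI1 at 8.53 ± 0.79 TPM (SD, n = 3 each), with overlapping libraries. MXD3 at 4.60 ± 0.28 TPM and MXD4 at 4.28 ± 0.69 TPM overlapped as well (SD, n = 3 each). MYCL at 2.54 ± 0.20 TPM and MXD1 at 2.27 ± 0.44 TPM (SD, n = 3 each) formed the next overlapping pair. MYCN was the lowest, at 0.42 ± 0.09 TPM (SD, n = 3). With HOTAIR-N siRNA the order differed in 1 place, where MXD4, at 7.18 ± 0.86 TPM, stood above MXD3, at 3.77 ± 0.44 TPM (SD, n = 3 each). MXD4 and MXD3, and likewise MYCL and MXD1, no longer overlapped in those libraries.

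MYC, the main activator, had 5317, 5068 and 4831 counts in the control libraries and 4918, 5850 and 5908 with HOTAIR-N siRNA. As CPM, which scales counts to library size, this was 153.7, 145.3 and 133.5 against 149.9, 172.1 and 165.8. HOTAIR-N siRNA replicate 1 lay within the control range, and the other 2 libraries lay above it. The log2 fold change was 0.17 (SE 0.07, 95% interval 0.03 to 0.31, edgeR, adjusted p = 0.0355). The call was lost when control replicate 2 (adjusted p = 0.0634) or 3 (0.158) was left out, and likewise for HOTAIR-N siRNA replicate 2 (0.164) or 3 (0.118). Without control replicate 1 it was 0.23 (edgeR, adjusted p = 0.00344).

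MYCN, the paralog best known from neuroblastoma, was near the limit of detection. It had 18, 16 and 14 counts with control siRNA and 27, 21 and 27 with HOTAIR-N siRNA, so that all 3 of the latter were higher, although the groups overlapped in TPM (0.35 to 0.52 against 0.45 to 0.89). The log2 fold change of 0.68 carried an SE of 0.25 and an interval of 0.14 to 1.23 (edgeR, adjusted p = 0.0314). Its call was lost on leaving out control replicate 2 (adjusted p = 0.0695) or 3 (0.113). The same held for replicates 1 (0.105) and 3 (0.0906) of HOTAIR-N siRNA, with no filter on low counts (0.0505) and with DESeq2 (0.189). MYCL, the paralog first found in small cell lung cancer, had 130 to 158 counts with control siRNA and 137 to 157 with HOTAIR-N siRNA. Its log2 fold change was 0.06 (interval -0.19 to 0.31) and did not pass (edgeR, adjusted p = 0.666).

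MAX, the shared partner, had 58.9, 53.3 and 56.6 CPM with control siRNA and 58.7, 53.7 and 55.9 CPM with HOTAIR-N siRNA. The groups overlapped almost completely. The log2 fold change was -0.00 with an interval of -0.14 to 0.13 (edgeR, adjusted p = 0.96), which leaves room for a change of about that size in either direction. MLX, the MAX-like partner, had 119.7, 114.8 and 119.6 CPM with control siRNA and 110.3, 103.7 and 109.0 CPM with HOTAIR-N siRNA, all of the latter lower. The log2 fold change was -0.13 (SE 0.05, edgeR, adjusted p = 0.0475), close to the threshold. This was lost on leaving out control replicate 3 (adjusted p = 0.109). It was also lost for each HOTAIR-N siRNA library left out, at 0.0582 for replicate 1, 0.223 for replicate 2 and 0.119 for replicate 3. It also missed with upper-quartile scaling (0.0997), no filter (0.0728) and a filter of 1 CPM in 3 libraries (0.062). The ratio of MLX to MAX in TPM was 1.57, 1.64 and 1.63 with control siRNA and 1.42, 1.44 and 1.48 with HOTAIR-N siRNA, a description with no test.

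**Figure D2:**
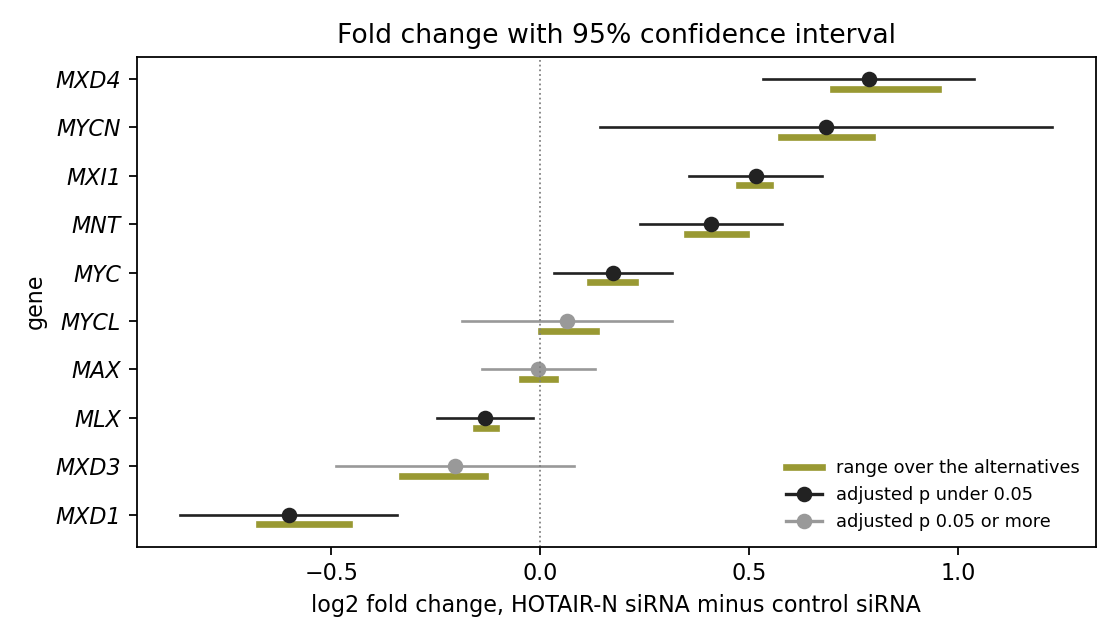
Log2 fold change of each network gene, HOTAIR-N siRNA minus control siRNA, with its 95% confidence interval (line) and the range over the alternative analyses (thick bar). MXD4, MXI1 and MNT lie above 0 and MXD1 below it throughout, while the interval of MLX ends close to 0 and those of MAX, MYCL and MXD3 span it.

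Of the antagonists, MXD4, a MAX partner that represses growth genes in differentiating cells, had the largest log2 fold change among the 10 genes. Its counts were 336, 254 and 256 with control siRNA and 397, 514 and 507 with HOTAIR-N siRNA. The 3 HOTAIR-N siRNA libraries were all above the controls, of which replicate 1 was the highest. This was 8.02 ± 1.47 against 13.8 ± 1.55 CPM (SD, n = 3 each). The log2 fold change was 0.79 (SE 0.12, edgeR, adjusted p = 4.54e-05). Over the 12 alternatives it ranged from 0.70 to 0.95, the highest being without control replicate 1. The interval of MYCN, 0.14 to 1.23, holds the value of MXD4, and their order was not tested.

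MXI1, an MXD family repressor also called MXD2, had the smallest p of the 10 genes. Counts were 447, 506 and 506 with control siRNA and 656, 648 and 718 with HOTAIR-N siRNA, with no overlap. It went from 13.8 ± 0.81 to 19.7 ± 0.59 CPM (SD, n = 3 each). On the log2 scale the difference was 0.52 (SE 0.07, edgeR, adjusted p = 3.05e-05). MNT, the antagonist with the highest mean TPM though it overlapped MXI1, pairs with both MAX and MLX. It had 906, 801 and 788 counts with control siRNA and 959, 1096 and 1161 with HOTAIR-N siRNA. Scaled for library size, the highest control stood at 26.2 CPM and the lowest HOTAIR-N siRNA library at 29.2 CPM. The log2 fold change of MNT was 0.41 (SE 0.08, edgeR, adjusted p = 4.73e-04).

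MXD1, the founding MXD gene, known for its induction in differentiation, went the other way. It showed 200, 265 and 208 counts with control siRNA and 140, 144 and 146 with HOTAIR-N siRNA. All HOTAIR-N siRNA libraries were below the controls, and control replicate 2 was the highest of the 6. This was 6.38 ± 1.06 against 4.2 ± 0.09 CPM (SD, n = 3 each), or 65.9% of control, a log2 fold change of -0.60 (SE 0.12, edgeR, adjusted p = 6.26e-04). MXD3, an MXD gene expressed in proliferating cells, had 3.99, 3.38 and 3.65 CPM with control siRNA and 2.83, 3.00 and 3.71 CPM with HOTAIR-N siRNA. The groups overlapped through HOTAIR-N siRNA replicate 3. Its log2 fold change was -0.20 (interval -0.49 to 0.08) and did not pass (edgeR, adjusted p = 0.202).

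In sum over the 5 antagonists, the level was 30.2, 30.1 and 28.0 TPM with control siRNA and 34.6, 37.1 and 38.4 TPM with HOTAIR-N siRNA. Divided by the TPM of MYC this was 0.45, 0.45 and 0.48 against 0.54, 0.50 and 0.53. Both measures were higher in all 3 HOTAIR-N siRNA libraries, and as scores over the chosen genes they were given no test. The make-up of the sum also differed. MXD4 went from 14.5% ± 1.98 to 19.5% ± 1.62 of it and MXD1 from 7.69% ± 1.36 to 3.94% ± 0.25 (SD, n = 3 each). MXD3 went from 15.6% ± 1.31 to 10.2% ± 0.85 and MXI1 from 29.03% ± 2.98 to 32.1% ± 1.90 (SD, n = 3 each). MNT made up 33.1% ± 1.63 and 34.2% ± 0.70 in the same order (SD, n = 3 each). MYC per MAX in TPM was 1.03, 1.06 and 0.93 with control siRNA and 0.98, 1.22 and 1.14 with HOTAIR-N siRNA, where the groups overlapped. The size of such ratios in TPM rests on the listed transcript lengths.

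At the level of RefSeq transcripts, the 10 genes have 32 isoforms in the tables, of which 23 reached a mean of 10 counts in a group and 21 were tested. Of these 4 rose, 1 fell and 16 did not pass, against 19.5% of all 32627 tested isoforms that passed in either direction. The single isoforms of MXD4 and MNT rose, at log2 fold changes of 0.80 and 0.42 (edgeR, adjusted p = 0.0249 and 0.0288). For MXI1 the main isoform NM_005962 rose, from 299.3, 357.4 and 348.1 counts to 497.9, 461.1 and 546.4. Its log2 fold change was 0.64 (SE 0.11, edgeR, adjusted p = 0.0113). The other MXI1 isoform of some size, NM_130439, had 0.56 (SE 0.21) and did not pass (edgeR, adjusted p = 0.133), though its groups did not overlap. The main MXD1 isoform NM_002357 had -0.55 and also missed the threshold (edgeR, adjusted p = 0.0895).

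Each of these isoform calls was lost on leaving out some libraries. MNT missed the threshold when any library other than control replicate 1 was left out, with adjusted p from 0.0508 to 0.1. MXD4 missed without control replicate 2 or 3 or HOTAIR-N siRNA replicate 2 or 3 (adjusted p from 0.0818 to 0.0861). NM_005962 of MXI1 missed without HOTAIR-N siRNA replicate 3 (0.0532). The main MYC isoform, NM_002467, had a log2 fold change of 0.18 (edgeR, adjusted p = 0.042) and missed without any of the libraries except HOTAIR-N siRNA replicate 1, with adjusted p from 0.0587 to 0.152. Its only listed companion, NM_001354870, is 3 nt shorter at 4515 against 4518 nt, so that nearly all reads are shared between them and the split is an estimate.

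**Figure D3:**
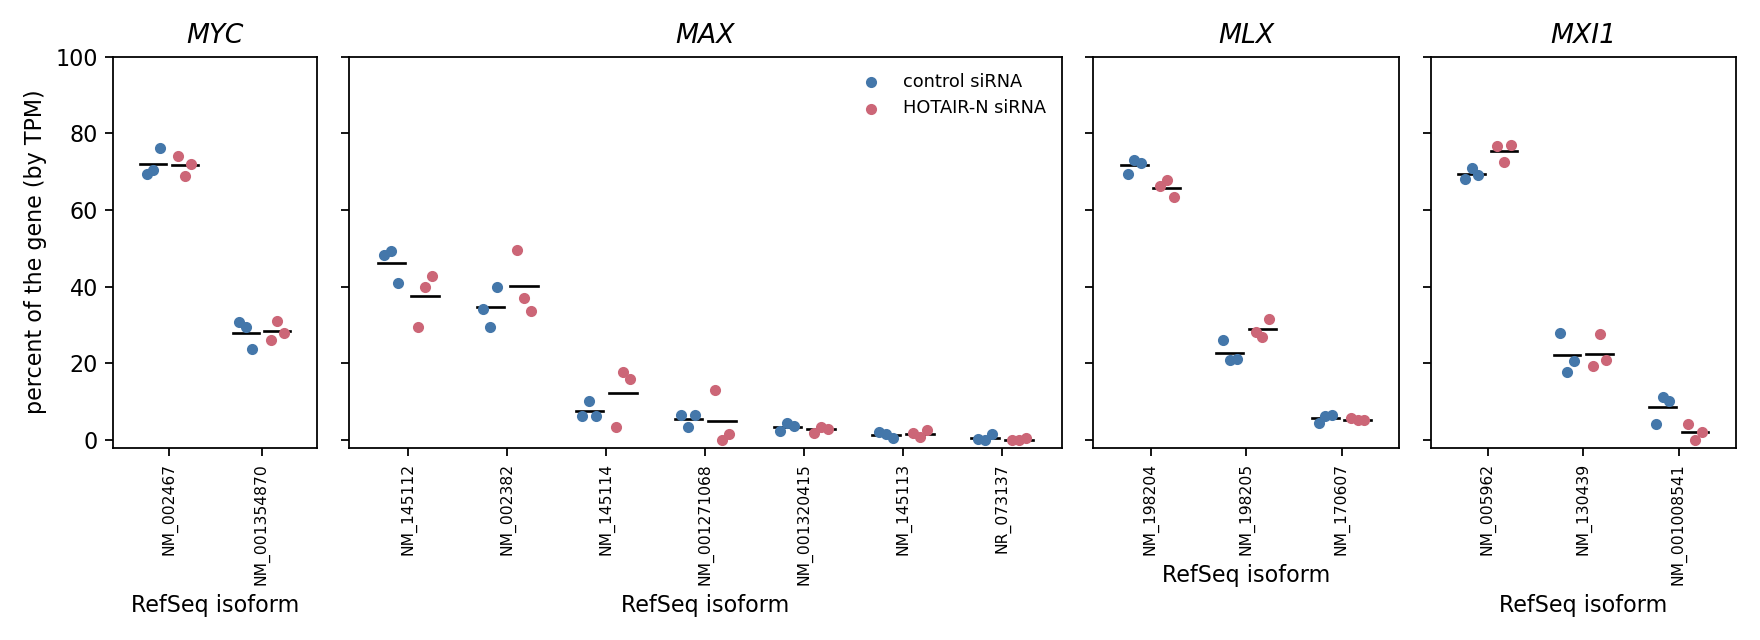
Share of the gene's TPM made up by each RefSeq isoform of MYC, MAX, MLX and MXI1, in percent, in each library of the 2 groups, with lines at the means. The main MLX isoform NM_198204 is lower and the main MXI1 isoform NM_005962 is higher in every HOTAIR-N siRNA library, and the MAX isoforms scatter widely within both groups.

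MLX had an isoform that fell. NM_198204 had 2896, 2934 and 3145 counts with control siRNA and 2413, 2410 and 2484 with HOTAIR-N siRNA. It fell by 0.24 on the log2 scale (SE 0.04, edgeR, adjusted p = 0.0114). This call was lost without HOTAIR-N siRNA replicate 2 (adjusted p = 0.0545) or 3 (0.0584). For NM_198205 the value was 0.23 (SE 0.13), short of the threshold (edgeR, adjusted p = 0.308). In the plot of isoform shares, NM_198204 went from 71.6% ± 1.90 to 65.8% ± 2.24 of MLX. NM_198205 went from 22.6% ± 3.00 to 28.9% ± 2.32 (SD, n = 3 each), without overlap in either. Tested as a change in isoform use, MLX did not pass (edgeR diffSpliceDGE over all genes, adjusted p = 1). In data simulated at the spread of these isoform counts, this test recovered no planted difference.

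MAX is made mainly as a longer and a shorter form, which differ by a small in-frame insertion. The longer, NM_002382 of 2040 nt, made up 34.2%, 29.6% and 40.0% of MAX with control siRNA and 49.5%, 37.2% and 33.8% with HOTAIR-N siRNA. The shorter, NM_145112 of 2013 nt, made up 48.2%, 49.2% and 40.8% and then 29.6%, 39.9% and 42.9%. The groups overlapped for both, and HOTAIR-N siRNA replicate 1 held the highest share of the longer form and the lowest of the shorter. Neither isoform passed (edgeR, adjusted p = 0.486 and 0.289). Of the 6 network genes tested for isoform use, none passed (edgeR diffSpliceDGE, adjusted p = 1 for each), and none had a raw p under 0.05. This stands against 4.13% of the 7523 genes tested. The isoform shares varied between replicates by up to 8.29 percentage points (SD) for these MAX isoforms. In data simulated at the spread of these counts, with 1 spread per gene, the test of isoform use recovered none of the planted differences. On the real counts it called 311 genes. How well the simulation matches these data was not tested, so the p-values of isoform use are weak evidence either way.

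Of 5 other factors that share E-boxes or partners with the network, 1 rose and 4 did not pass, against 57.5% of all tested genes that passed. USF1, an E-box activator, rose from 51.8, 48.3 and 49.9 CPM to 66.5, 68.1 and 66.0 CPM, a log2 fold change of 0.42 (SE 0.06, edgeR, adjusted p = 2.04e-05). Its relative USF2 had -0.12 (SE 0.07) and the MLX partner MLXIP had 0.01 (SE 0.07), and neither passed. MLXIPL, with 21 to 45 counts per library, had 0.46 (SE 0.23) and did not pass (edgeR, adjusted p = 0.0953). MGA, a large MAX partner with a T-box, had -0.14 (SE 0.06, edgeR, adjusted p = 0.0793) and passed only without control replicate 1, at -0.19 (adjusted p = 0.00264).

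Of 14 subunits of the SIN3 corepressor, through which MXD proteins and MNT repress, 6 fell, none rose and 8 did not pass, with a median log2 fold change of -0.14. Thus 42.9% passed, against 57.5% of all tested genes, of which 28.8% were lower. ING1 (-0.41), BRMS1 (-0.31), RBBP4 (-0.26) and SUDS3 (-0.26) had the smallest p. The scaffolds SIN3A and SIN3B did not pass. Of 18 cofactors of MYC, 6 rose, 4 fell and 8 did not pass, with a median of 0.03, so that 55.6% passed, near the share over all genes. The cyclin CCNT1, part of the elongation kinase that MYC recruits, fell by 0.40 on the log2 scale, and the acetyltransferase KAT2B by 0.59. The acetyltransferase scaffold TRRAP fell by 0.21, and DMAP1, a subunit of the same TIP60 complex, rose by 0.28.

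Of 18 tested genes that set the stability of MYC protein, 9 fell, 3 rose and 6 did not pass, with a median log2 fold change of -0.18. This is 66.7% passing, against 57.5% of all tested genes, with 28.8% of all genes lower and 28.7% higher. The kinase gene GSK3B, whose product marks MYC for degradation, fell from 103.3 ± 7.56 to 65.4 ± 1.26 CPM (SD, n = 3 each), or by -0.66 (SE 0.06) on the log2 scale. The ubiquitin ligase genes BTRC and SKP2 fell by 0.59 and 0.43 on the log2 scale. CIP2A, whose product protects MYC from dephosphorylation, fell by 0.47. The list thus holds genes with opposite effects on MYC protein, which was not measured.

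**Figure D4:**
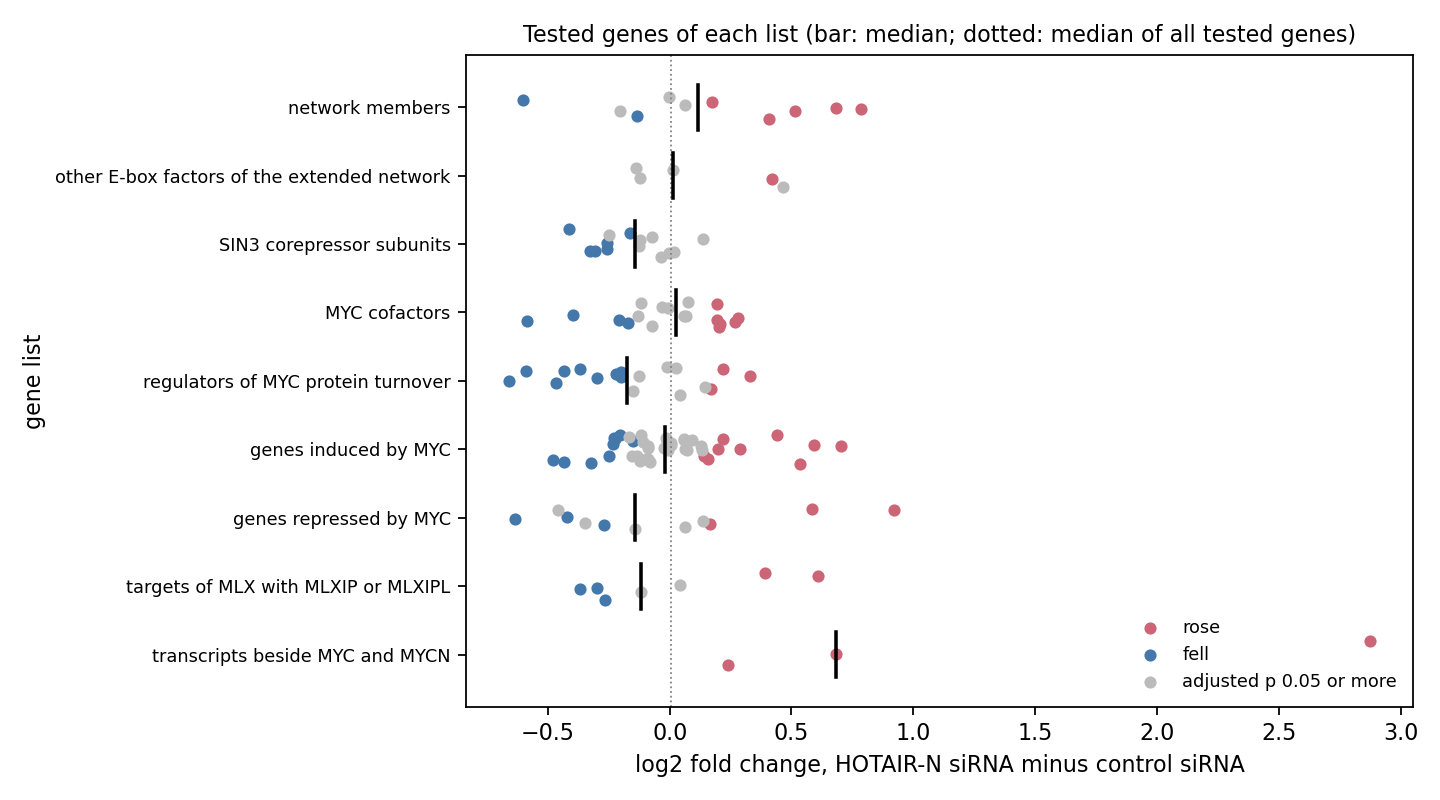
Log2 fold change of every tested gene in the 9 lists (points, coloured by the edgeR call), with the list's median (bar) and the median of all tested genes (dotted line). Genes induced by MYC lie on both sides of it, with a median of -0.02, and SIN3 subunits hold no gene that rose.

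Targets of the network moved in both directions, as did all tested genes, of which 28.7% passed as higher and 28.8% as lower. Of 42 genes known to be induced by MYC, 9 rose, 9 fell and 24 did not pass, with a median log2 fold change of -0.02, so that 42.9% passed against 57.5% of all tested genes. Among them the cyclin gene CCND2 rose from 235.9 ± 18.8 to 384.5 ± 24.0 CPM (SD, n = 3 each), or by 0.71 (SE 0.07) on the log2 scale. ODC1, the first enzyme of polyamine synthesis and a classical E-box target, rose by 0.44, and NAMPT, an enzyme of NAD salvage, by 0.59. HSPD1, the mitochondrial chaperonin, fell by 0.48. Of 11 tested genes known to be repressed by MYC, 3 rose, 3 fell and 5 did not pass, or 54.5% passing. The cell cycle inhibitor genes CDKN1A (0.92) and CDKN2B (0.59) rose, while CDKN1B (-0.42) and the stress gene NDRG1 (-0.64) fell.

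Of 7 tested targets of MLX with MLXIP or MLXIPL, 2 rose, 3 fell and 2 did not pass, or 71.4% passing against 57.5% of all tested genes, and PKLR, with 1.19 to 3.61 counts per library, was not tested. TXNIP, the glucose-responsive target most used as a readout of MLXIP, rose from 18.1, 20.9 and 17.9 CPM to 22.9, 26.0 and 25.6 CPM, a log2 fold change of 0.39 (SE 0.08, edgeR, adjusted p = 8.18e-04). ARRDC4, its close relative, had -0.12 (SE 0.11) and did not pass (adjusted p = 0.367). Of the lipid synthesis genes, ACACB rose by 0.61, whereas ELOVL6 and FASN fell by 0.37 and 0.30. Leaving out control replicate 1 ended the call for FASN, at -0.24 (adjusted p = 0.143). KLF10, a transcription factor gene, fell by 0.27. GPD1 had 9 to 24 counts and a log2 fold change of 0.04.

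Beside MYC lies the long non-coding RNA gene PVT1, which rose. It went from 30.6, 26.8 and 28.7 CPM to 46.1, 47.4 and 44.7 CPM, a log2 fold change of 0.68 (SE 0.07, edgeR, adjusted p = 6.83e-07). The difference between the changes of PVT1 and MYC was not tested. TMEM75, a small gene of the same region, had 36, 37 and 30 counts with control siRNA and 233, 245 and 257 with HOTAIR-N siRNA, a log2 fold change of 2.87 (SE 0.13, edgeR, adjusted p = 2.72e-10). DDX1, the neighbour of MYCN, rose by 0.24 on the log2 scale. The other 6 listed transcripts, CCAT1, CASC8, CASC11, CASC19, MYCNOS and MYCNUT, had 0 to 7 counts in any library and were not tested. MYCNOS, the antisense partner of MYCN, had 3 counts in HOTAIR-N siRNA replicate 3 and none elsewhere. Whether strand was used in counting is not given in the sources used here, so reads of overlapping genes may be mixed.

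Genes whose level followed that of a network gene across the 6 libraries were found by the correlation of log2 CPM over 12259 genes, as a description. For MYC the closest were FAM129B (Pearson r = 0.999), TNRC18 (0.998) and NUCB1 (0.997). They had log2 fold changes of 0.20, 0.27 and 0.18. For MXI1 they were MAGI2-AS3, MSMO1 and SEPSECS, with r of 1.00, 0.999 and 0.999 after rounding. With 6 points that share 2 groups such values are common, and 217 genes had an r above 0.95 with MYC and 1299 with MXI1.

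The words GACCAAT and ACCAATA, which in these same data went with lower expression when present in a transcript, were looked for in the 3' UTR and coding sequence of the most abundant isoform. They were found in none of the searched sequences of the 10 network genes, against 19.9% of the 12783 tested genes that could be searched. The search does not cover whole transcripts. For MYC it covered 1365 nt of coding sequence and 476 nt of 3' UTR, where the counted isoform has 4518 nt. For MYCN the isoform used, NM_001293231, had 0 to 24.2 counts per library. Over all searched genes the median log2 fold change was -0.21 with 1 of these words and 0.04 without. These medians restate the association in the same data and are no separate support for it. Of the searched genes of the other lists, 1 of these words was held by 5 of 17 regulators of MYC turnover, 3 of 13 SIN3 subunits, 4 of 11 genes repressed by MYC and 6 of 41 induced by it. It was held by 2 of 5 E-box factors, 2 of 7 MLX targets, 3 of 18 MYC cofactors and 0 of 1 neighbours of MYC and MYCN. The words TGAATAT and GAATATA, searched in the same way, were found in 2 of the 10 network genes, MAX and MXD1, against 32.2% of all searched genes. For these words the median log2 fold change over all searched genes was -0.006 with and 0.002 without. The part of these words in the list counts was not tested.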

How the data were processed

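RNA-seq of 6 H23 libraries was used. Per the submitters' processing notes the authors ran STAR 2.6.0c and RSEM 1.3.0 on hg19. Neither annotation release nor strandedness in counting is given in the sources used here. Per the file headers, the deposited gene and isoform tables hold RSEM's expected counts, in which shared reads are divided, together with library-scaled TPM and FPKM and, for isoforms, the percent of the parent gene. FPKM was not analysed.

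Expected counts were rounded, then compared by edgeR 4.0.16 under R 4.3.3 (filterByExpr, TMM, robust quasi-likelihood, Benjamini-Hochberg over all genes or isoforms, threshold 0.05). Isoform use was tested with diffSpliceDGE, which assumes that isoforms of a gene share 1 spread. CPM uses TMM-scaled library sizes. Where no adjusted p is given, rose and fell rest on the same edgeR test. Depth was 32715361 to 36578681 counts per library, and genes under about 30 counts, such as MYCN, are imprecise. Steps were tested on simulated data, where the gene step recovered most planted differences, the isoform step a minority, and the isoform use step none at the spread of these data. A leukocyte marker is not reported here.

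The members and lists were chosen with earlier results of these data known, and the counts over lists describe them without a set test. Named were all members, HOTAIR, all genes of lists of at most 9, the 4 smallest p of longer lists, member isoforms with a mean of 10 counts, and the 3 genes most correlated with MYC and MXI1. Any further gene was picked with its values in view. Alternatives were RLE and upper-quartile scaling, no filter, 1 CPM in 3 libraries, DESeq2 1.42.0, the replicate number as a block and each library left out. Promoters came from RefSeq (GRCh38.p14) by symbol, for 9 of 10 genes, and transcripts from GENCODE 29 by RefSeq name, for 12783 of 15072 tested genes.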

Additional observations from a re-analysis of the deposited data

How the results depend on the processing

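Over the 12 alternatives 7503 to 9234 genes passed, against 8672 in the analysis as reported, and HOTAIR kept its call. Leaving out 1 library in turn gave 4 to 7 network genes (4 without control replicate 3 or HOTAIR-N siRNA replicate 3), 3551 to 5647 isoforms against 6362, and 186 to 251 genes for isoform use against 311. The cause was not tested. Same-numbered libraries showed no sign of deviating together (correlations of -0.12, 0.02 and -0.04). Libraries with unlike numbers gave -0.14 to 0.17. With 3 libraries per group this cannot settle whether the replicate numbers pair them. With the replicate number as a block 5 network genes passed, with MYC at adjusted p = 0.0616 and MLX at 0.119, as did 2012 isoforms and 141 genes for isoform use. No tested network isoform passed with the block. Of the 45 members and genes named from the lists, 40 kept their call throughout, all but MYC, MYCN, MLX, MGA and FASN. This number leaves out HOTAIR and the genes named for their correlation. Of 21 tested isoforms 16 kept their call. No called value changed sign. Upper-quartile scaling moved the median of all genes by 0.02 on the log2 scale. Low counts limit MYCN, MLXIPL, GPD1 and minor isoforms.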
